A study of Danio rerio with 4 samples.

Results

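Heat shock proteins and their DnaJ partners are the general protein-folding machinery of the cell, and 77 of the 32313 Ensembl genes in the expression tables belonged to it. A gene was included where its symbol began with hspa, hspb, hspd, hspe, hsp70, hsp90, hsc70 or dnaj, whatever its measured level. Names beginning with hspbp or hspbap were left out, and the gene listed as HSP90AA1 (ENSDARG00000024746) was included. By family there were 4 Hsp90, 17 Hsp70, 2 chaperonin (HSPD1 and HSPE1) and 9 small heat shock genes, with 4 DnaJ genes of class A, 13 of class B and 28 of class C. Levels are RPKM, that is reads scaled to the length of the gene model and to the depth of the library, so that genes can be compared per length.

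Hsp70 proteins bind exposed stretches of unfolded or newly made chains and release them in a cycle driven by ATP. DnaJ proteins, also called Hsp40, bring substrates to Hsp70 and start that cycle, while Hsp90 finishes the folding of a narrower set of clients such as kinases, receptors and, in muscle, myosin. HSPD1 and HSPE1 form the folding chamber of the mitochondrion, and small heat shock proteins hold unfolded proteins in a soluble state without ATP. Some of these genes are always on, and others are switched on by the heat shock factor Hsf1 under stress.

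The study set zebrafish embryos (Danio rerio) with reduced eIF3h, one of the subunits of initiation factor eIF3, against wild-type embryos, and asked which mRNAs need that subunit to reach polysomes, the mRNAs that carry several ribosomes. The 4 groups were polysomal mRNA of eif3ha morphants, polysomal mRNA of wild-type embryos, total mRNA of eif3ha morphants and total mRNA of wild-type embryos, all at about 24 hours after fertilization. Morphants had received a morpholino, a stable antisense oligonucleotide, by injection. No strain is named in the labels. Whole embryos were pooled, 300 for polysomal and 50 for total mRNA, and each group had 1 library. No test between groups is therefore possible, and differences could not be checked in replicates. Because no control-morpholino group appears in the labels, reduced eIF3h and the injection itself cannot be told apart. In whole embryos, fewer cells of a type and less RNA per cell cannot be told apart either.

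Recovered depths lay between 15769467 and 24939984 reads per library, and 1 read on a gene model of 1 kb was worth 0.0401 to 0.0634 RPKM. The polysomal libraries held 7752 (morphant) and 7737 (wild type) genes at 3 RPKM or more, against 11657 (morphant) and 11551 (wild type) in total mRNA. The feature named EIF3H (ENSDARG00000036116) stood at 7.60 RPKM in morphant and 6.33 RPKM in wild-type polysomal mRNA, and at 5.92 and 6.24 RPKM in morphant and wild-type total mRNA. This level does not check the labels, since a morpholino can block translation without lowering the mRNA. The wild-type polysomal library stood apart for the summed muscle and lens markers. The summed level of 22 skeletal muscle markers was 6253 RPKM in morphant and 12766 RPKM in wild-type polysomal mRNA, with 18 of the 22 at 3 RPKM or more in each library, and was 3564 and 2459 RPKM in morphant and wild-type total mRNA. The sum of 13 lens markers was 66.6 RPKM in morphant and 394 RPKM in wild-type polysomal mRNA, with 6 and 11 markers at 3 RPKM or more, and was 38.7 and 36.7 RPKM in morphant and wild-type total mRNA. The sum of 8 neuron markers was 38.6 RPKM in morphant and 88.5 RPKM in wild-type polysomal mRNA, with 2 and 5 at 3 RPKM or more. In morphant and wild-type total mRNA it was 65.4 and 79.5 RPKM, with 5 and 6. Of 7 neuron markers at 3 RPKM or more in either wild-type library, 3 were higher in polysomal than in total mRNA and 4 lower. Among the lower was ELAVL3, at 0.818 RPKM in wild-type polysomal and 44.5 RPKM in wild-type total mRNA. The sum of 8 epidermis markers, all at 3 RPKM or more in each library, was 4155 and 4566 RPKM in morphant and wild-type polysomal mRNA, and 6179 and 4415 RPKM in morphant and wild-type total mRNA. For 4 erythroid markers, 3 of them at 3 RPKM or more in each library, the polysomal sum was 1720 RPKM in morphants and 1243 RPKM in wild type. Their total mRNA sum was 1148 RPKM in morphants and 1014 RPKM in wild type.

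Of the 77 chaperone genes, 53 reached 3 RPKM in at least 1 library, 39 did so in all 4 libraries, and 12 stayed below 1 RPKM everywhere. The most abundant was HSPA8 (ENSDARG00000068992), the constitutive cytosolic Hsp70 often called Hsc70. It stood at 1061 RPKM in morphant and 1430 RPKM in wild-type polysomal mRNA, and at 1956 and 1909 RPKM in morphant and wild-type total mRNA. Next came HSP90AB1 (ENSDARG00000029150), the constitutive cytosolic Hsp90, and hsp90aa1.1 (ENSDARG00000010478), the Hsp90 that folds myosin in zebrafish muscle. The summed level of the Hsp90 genes was 716 RPKM in morphant and 1199 RPKM in wild-type polysomal mRNA, and 952 and 1217 RPKM in morphant and wild-type total mRNA. The sum of the Hsp70 genes was 1242 and 1633 RPKM in morphant and wild-type polysomal mRNA, against 2229 and 2222 RPKM in morphant and wild-type total mRNA. Both sums were thus lower in morphant polysomes, and in total mRNA the Hsp90 sum was lower too while the Hsp70 sum was level. The Hsp70 sum is mostly HSPA8. Of 6 Hsp70 genes at 3 RPKM or more in polysomal mRNA, HSPA8 included, 4 were lower in morphants and 2 were not, HSPA9 among the 2. The summed small heat shock genes gave 232 RPKM in morphant and 268 RPKM in wild-type polysomal mRNA, and 166 and 145 RPKM in morphant and wild-type total mRNA. Class C DnaJ genes summed to 449 and 495 RPKM in morphant and wild-type polysomal mRNA, and to 345 and 343 RPKM in morphant and wild-type total mRNA. Classes A and B were minor, with sums of 48.6 to 153 RPKM over the 4 libraries.

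**Figure D1:**
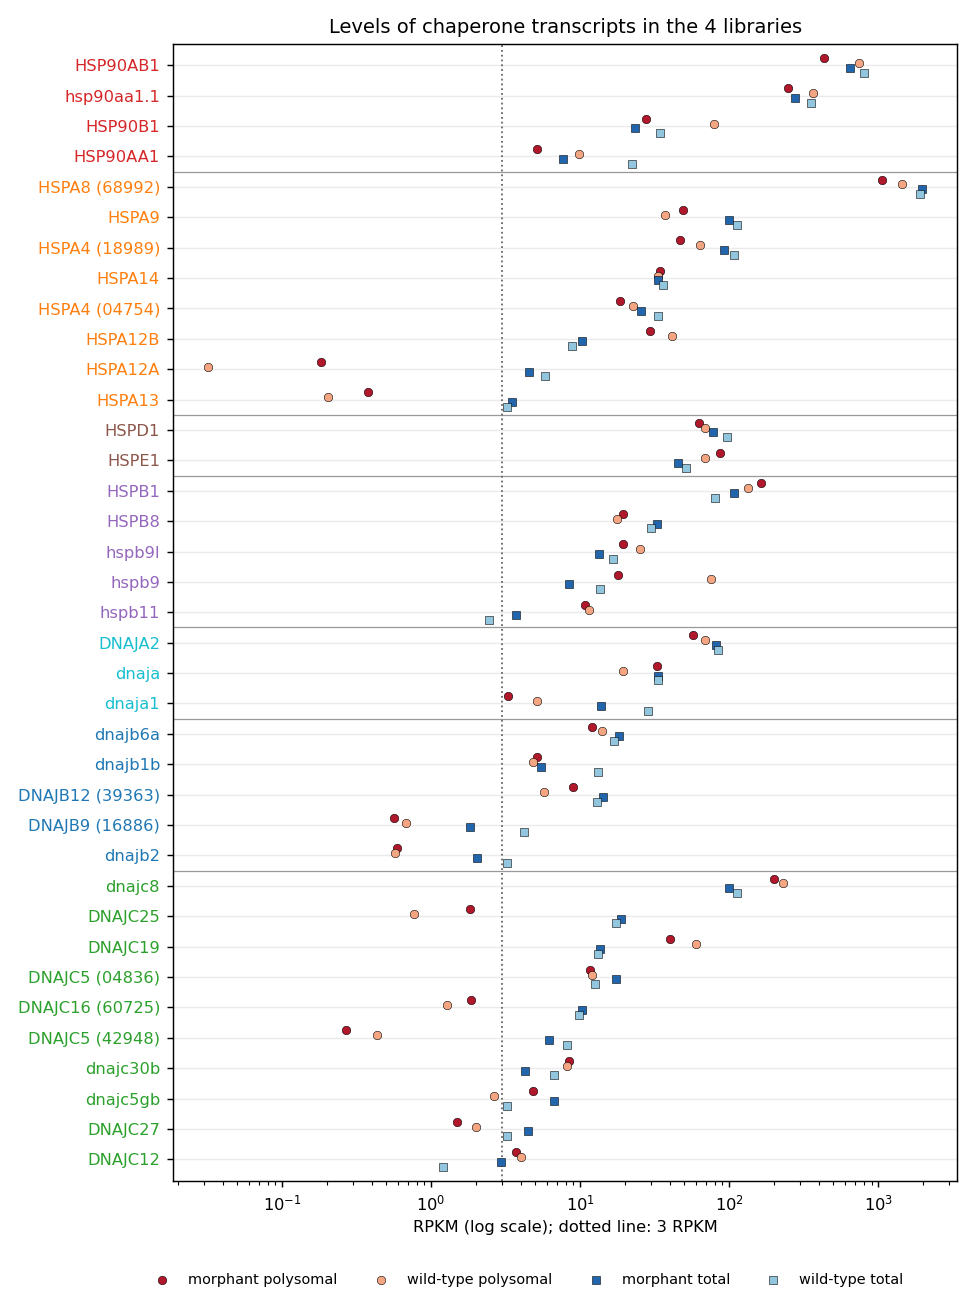
Level of each chaperone gene outside the DnaJ classes that reached 3 RPKM, and of selected DnaJ genes, in the 4 libraries (RPKM, log axis; circles, polysomal mRNA; squares, total mRNA; dark, morphant; light, wild type; 1 library each, so no error bars). Digits after a symbol are the last 5 of its Ensembl identifier where several genes share the symbol. All 4 Hsp90 genes have the morphant point left of the wild-type point in both fractions, and HSPA12A, HSPA13, DNAJC25 and one DNAJC5 copy sit far lower in polysomal than in total mRNA.

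Morphants were first compared with wild type within each fraction. Ratios were taken on the log2 scale, morphant over wild type, with 0.5 RPKM added to each level, so that differences of low genes are understated, and a gene had to reach 3 RPKM in at least 1 of the libraries compared. Of 45 chaperone genes above that floor in polysomal mRNA, 0 were higher in morphants by at least 2-fold and 2 were at least 2-fold lower, where 1.76% of all 8261 genes were higher and 4.12% lower. The 2 were hspb9 and HSP90B1. In total mRNA 0 of 51 were at least 2-fold higher and 4 were lower by that much, where 1.43% of all 12154 genes were higher and 0.675% lower. Those 4 were HSP90AA1, dnajb1b, dnaja1 and DNAJB9. The share of chaperone genes past 2-fold was near the background in polysomal mRNA (4.44% lower). In total mRNA it was 7.84% lower, though 2 of the 4 genes lay just past the cutoff. On the other side dnajc5gb lay just short of it at 0.93, and with 0.1 RPKM added in place of 0.5 it passed, at 1.01. The median ratio of the chaperone genes was -0.12 in polysomal and -0.03 in total mRNA, beside medians of -0.01 and -0.02 over all genes.

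All 4 genes with an hsp90 symbol were lower in morphants in both fractions, with a median of -0.82 in polysomal and -0.45 in total mRNA. All 4 also stayed below 0 in both fractions under 3 other scalings of the libraries. TRAP1, the mitochondrial Hsp90, falls outside the symbol rule and was kept in the list of Hsp90 co-chaperones and partners. It held 3.73 RPKM in morphant and 3.46 RPKM in wild-type polysomal mRNA (ratio 0.09). In morphant and wild-type total mRNA it held 4.34 and 4.76 RPKM (ratio -0.12). Over all genes, 4222 of 8261 were below 0 in polysomal mRNA and 6369 of 12154 in total mRNA. The share of all genes below 0 in both was not computed. HSP90B1 (ENSDARG00000003570), the Hsp90 of the endoplasmic reticulum also called Grp94, stood at 27.8 RPKM in morphant and 79.6 RPKM in wild-type polysomal mRNA. In total mRNA it stood at 23.2 RPKM in morphants and 34.1 RPKM in wild type. The wild-type polysomal library was thus the high one, and the other 3 lay close together. The polysomal ratio was -1.50, with a 95% counting interval of -1.59 to -1.44, and the total ratio was -0.55 (-0.65 to -0.47). Counting intervals come from the reads behind each value, cover counting error only and are taken as too narrow for polysomal mRNA.

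HSP90AA1 (ENSDARG00000024746) was the scarcest Hsp90 gene and had a different high library. It held 5.10 RPKM in morphant and 9.78 RPKM in wild-type polysomal mRNA, and 7.73 RPKM in morphant and 22.1 RPKM in wild-type total mRNA. Only wild-type total mRNA exceeded 10 RPKM. Its total ratio of -1.46 (-1.69 to -1.36) was the lowest of all chaperone genes above the floor, and its polysomal ratio was -0.87 (-1.17 to -0.71). The annotation gives this gene no more exact name, and reads it shares with the like sequence of hsp90aa1.1 could have been counted for either gene.

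The abundant cytosolic genes differed less. HSP90AB1 held 434 RPKM in morphant and 743 RPKM in wild-type polysomal mRNA, and 644 and 805 RPKM in morphant and wild-type total mRNA, which gave polysomal and total ratios of -0.77 and -0.32. For hsp90aa1.1 the levels were 249 and 366 RPKM in morphant and wild-type polysomal mRNA, and 277 and 355 RPKM in morphant and wild-type total mRNA. Its polysomal and total ratios were -0.56 (-0.59 to -0.53) and -0.36 (-0.39 to -0.33). The 18 skeletal muscle markers above the floor had a median ratio of -1.23 in polysomal mRNA and 0.62 in total mRNA. The neuron markers above the floor, 5 in polysomal and 6 in total mRNA, had medians of -1.22 and -0.01, and the 8 epidermis markers had medians of -0.04 and 0.37. The part of muscle, neuron and epidermis content in the Hsp90 and other chaperone ratios was not tested.

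Of the 17 Hsp70 genes, 6 were above the floor in polysomal and 8 in total mRNA, with medians of -0.36 and -0.14 and none past 2-fold. HSPA8 had a polysomal ratio of -0.43 and a total ratio of 0.03. Its second copy (ENSDARG00000037403) did not exceed 1.57 RPKM in any library. HSPA4, an Hsp110-type protein that exchanges the nucleotide of Hsp70, is present as a pair of genes. ENSDARG00000018989 held 46.8 RPKM in morphant and 63.4 RPKM in wild-type polysomal mRNA, and 91.7 and 107 RPKM in morphant and wild-type total mRNA. ENSDARG00000004754 held 18.5 and 22.7 RPKM in morphant and wild-type polysomal mRNA, and 25.7 and 33.0 RPKM in morphant and wild-type total mRNA. Both copies were lower in morphants in each fraction, with polysomal and total ratios of -0.43 and -0.22 for ENSDARG00000018989 and of -0.29 and -0.36 for ENSDARG00000004754. HSPA14, which works with DNAJC2 at the ribosome, was level, at 34.1 and 33.2 RPKM in morphant and wild-type polysomal mRNA and 33.5 and 35.8 RPKM in morphant and wild-type total mRNA.

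HSPA9 and HSPA12B had opposite signs in the fractions. HSPA9 (ENSDARG00000003035), the mitochondrial Hsp70 mortalin, held 49.1 RPKM in morphant and 36.9 RPKM in wild-type polysomal mRNA, against 100.3 and 114 RPKM in morphant and wild-type total mRNA. Its ratio was 0.41 (0.34 to 0.48) in polysomal mRNA and -0.18 (-0.22 to -0.14) in total mRNA. HSPA12B (ENSDARG00000030307), an Hsp70 relative known from endothelial cells, held 29.2 RPKM in morphant and 41.2 RPKM in wild-type polysomal mRNA, and 10.3 and 8.77 RPKM in morphant and wild-type total mRNA. Its polysomal and total ratios were -0.49 (-0.54 to -0.44) and 0.22 (0.14 to 0.32). None of these 4 values reached 2-fold.

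The stress-induced Hsp70 genes hsp70.3 and hsp70l were scarce, as were hsp70.1, hspa1b and the gene listed as hsc70. hsp70.3 had 34 reads in morphant and 59 in wild-type polysomal mRNA, and 18 and 81 reads in morphant and wild-type total mRNA. The level of hsp70.3 did not exceed 1.61 RPKM in any library. On the scale of reads per depth its ratio was -1.28 (-1.93 to -0.64) in polysomal mRNA and -1.92 (-2.75 to -1.17) in total mRNA. hsp70l, the gene used in zebrafish heat shock promoters, had 13 and 10 reads in morphant and wild-type polysomal mRNA, and 1 and 9 in morphant and wild-type total mRNA. The gene listed as hsc70 had 0 reads in morphant and 18 in wild-type polysomal mRNA. With the 0 set to 3 reads, it was 8.37-fold lower in morphants there. That fold is not a lower bound, since the counting interval of the hsc70 ratio reached up to -2.62. The hsc70 gene had 2 and 1 reads in morphant and wild-type total mRNA. These genes, like hsp90aa1.1, HSPE1, HSPA14 and the scarce small heat shock genes below, were chosen for description after their values were seen.

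The mitochondrial chaperonin pair had opposite signs in polysomal mRNA. HSPD1 (Hsp60, ENSDARG00000056160) held 63.0 RPKM in morphant and 68.3 RPKM in wild-type polysomal mRNA, and 78.0 and 96.8 RPKM in morphant and wild-type total mRNA, with polysomal and total ratios of -0.12 (-0.17 to -0.06) and -0.31 (-0.35 to -0.27). HSPE1 (Hsp10, ENSDARG00000056167) held 86.7 RPKM in morphant and 69.0 RPKM in wild-type polysomal mRNA, and 45.5 and 51.2 RPKM in morphant and wild-type total mRNA. Its ratio was 0.33 (0.27 to 0.39) in polysomal mRNA and -0.17 (-0.24 to -0.10) in total mRNA. Both were thus lower in morphant total mRNA, and HSPE1 was higher and HSPD1 slightly lower in morphant polysomes. The sign of the HSPD1 polysomal ratio turned (0.11) when libraries were scaled without their 50 most abundant genes. The pair are neighbouring genes on chromosome 9 in the RefSeq annotation of assembly GRCz12tu.

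Among small heat shock genes, hspb9 (ENSDARG00000078674) had the lowest polysomal ratio of all chaperone genes above the floor. It held 17.8 RPKM in morphant and 75.9 RPKM in wild-type polysomal mRNA, and 8.44 and 13.7 RPKM in morphant and wild-type total mRNA. Wild-type polysomal mRNA was again the high library, as for HSP90B1 and the summed lens and muscle markers. The ratio was -2.06 (-2.301 to -1.89) in polysomal mRNA, a 4.17-fold lower level, and -0.67 (-1.04 to -0.37) in total mRNA. The part of lens, muscle and neuron content in the hspb9 and HSP90B1 ratios was not tested. Its relative hspb9l held 19.5 and 25.0 RPKM in morphant and wild-type polysomal mRNA, and 13.4 and 16.6 RPKM in morphant and wild-type total mRNA.

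HSPB1 (Hsp27) was the most abundant small heat shock gene and was higher in morphants in both fractions. It held 163 RPKM in morphant and 133 RPKM in wild-type polysomal mRNA, and 107 and 80.6 RPKM in morphant and wild-type total mRNA, with polysomal and total ratios of 0.29 (0.24 to 0.35) and 0.40 (0.34 to 0.47). For hspb11 the levels were 10.8 and 11.5 RPKM in morphant and wild-type polysomal mRNA, and 3.69 and 2.46 RPKM in morphant and wild-type total mRNA. Its total ratio of 0.50 had an interval that reached 0 (-0.03 to 1.22). HSPB8, a partner of the co-chaperone Bag3, held 19.5 and 17.8 RPKM in morphant and wild-type polysomal mRNA, and 32.8 and 29.8 RPKM in morphant and wild-type total mRNA. The small heat shock genes HSPB2 and HSPB3, known from muscle, were found mostly in wild-type polysomal mRNA. HSPB2 had 0 reads in morphant and 35 in wild-type polysomal mRNA, and 0 and 1 in morphant and wild-type total mRNA. With the morphant 0 set to 3 reads, it was 16.3-fold lower in morphant polysomal mRNA. That fold is not a lower bound, since the counting interval of the HSPB2 polysomal ratio reached up to -3.65. HSPB3 had 13 and 28 reads in morphant and wild-type polysomal mRNA, and 6 and 3 in morphant and wild-type total mRNA. The other scarce genes of the family did not share this. hspb6 had 9 and 2 reads in morphant and wild-type polysomal mRNA, and 15 and 40 in morphant and wild-type total mRNA. hspb15 had 3 and 2 reads in morphant and wild-type polysomal mRNA, and 6 and 3 in morphant and wild-type total mRNA.

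**Figure D2:**
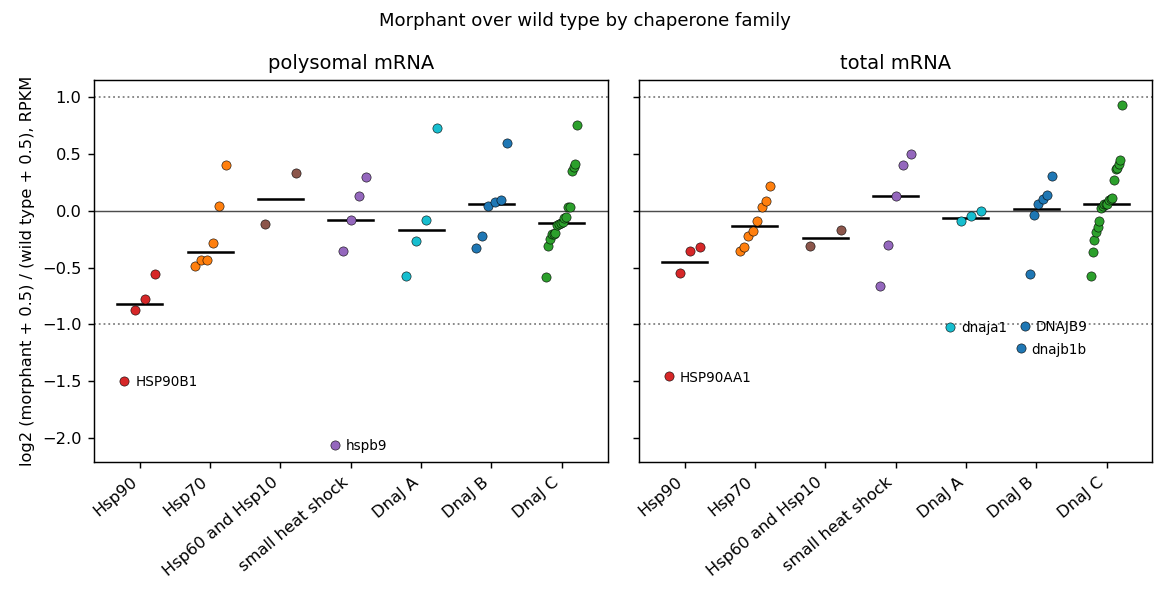
Log2 ratio of morphant over wild type (RPKM + 0.5) of each chaperone gene above the floor, by family, in polysomal (left) and total (right) mRNA; black lines are medians and dotted lines mark 2-fold. The 4 Hsp90 genes all lie below 0 in both panels, and the genes past 2-fold are named.

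Class A and B DnaJ proteins are the general partners of Hsp70, and of 4 class A and 8 class B genes above the floor, 1 and 2 were at least 2-fold lower in morphant total mRNA, where 0.675% of all genes were. With a pseudocount of 1 RPKM, dnajb1b alone of these 3 stayed past 2-fold. dnajb1b (ENSDARG00000041394), an Hsp40 of the heat-inducible class, held 5.15 RPKM in morphant and 4.84 RPKM in wild-type polysomal mRNA, and 5.43 and 13.2 RPKM in morphant and wild-type total mRNA. Wild-type total mRNA alone was high, as for HSP90AA1. The ratio was 0.08 (-0.11 to 0.29) in polysomal mRNA and -1.21 (-1.44 to -1.14) in total mRNA. dnaja1 (ENSDARG00000030972), a main Hsp40 of the cytosol, held 3.27 RPKM in morphant and 5.10 RPKM in wild-type polysomal mRNA, and 13.7 and 28.4 RPKM in morphant and wild-type total mRNA. Its total ratio of -1.02 (-1.19 to -0.92) lay at the edge of 2-fold, and its polysomal ratio was -0.57 (-0.96 to -0.33). DNAJB9 (ENSDARG00000016886), which partners the Hsp70 of the endoplasmic reticulum, held 0.565 and 0.675 RPKM in morphant and wild-type polysomal mRNA, and 1.82 and 4.18 RPKM in morphant and wild-type total mRNA. Its total ratio was -1.01 (-1.48 to -0.93 from the reads), also at the edge. The second DNAJB9 copy (ENSDARG00000052072), below the floor, had 63 reads in morphant and 173 in wild-type total mRNA, a ratio of -1.21 (-1.65 to -0.79) per depth. Both copies were thus lower in morphant total mRNA.

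Among other class A and B genes, some were higher in morphants, and others were level or lower by less than 2-fold. The gene listed as dnaja (ENSDARG00000051762) held 32.6 RPKM in morphant and 19.5 RPKM in wild-type polysomal mRNA, and 33.0 and 33.2 RPKM in morphant and wild-type total mRNA, so wild-type polysomal mRNA was the low library (ratio 0.73, 0.56 to 0.93). DNAJB12 (ENSDARG00000039363), an anchored co-chaperone of the endoplasmic reticulum, held 8.89 and 5.70 RPKM in morphant and wild-type polysomal mRNA, and 14.3 and 12.9 RPKM in morphant and wild-type total mRNA, with a polysomal ratio of 0.60 (0.43 to 0.86). DNAJA2, the most abundant class A gene, held 57.1 and 68.7 RPKM in morphant and wild-type polysomal mRNA, and 81.2 and 83.7 RPKM in morphant and wild-type total mRNA. dnajb6a, whose product holds back aggregation, held 12.02 and 14.1 RPKM in morphant and wild-type polysomal mRNA, and 18.2 and 16.97 RPKM in morphant and wild-type total mRNA. The polysomal ratios were -0.26 (-0.34 to -0.19) for DNAJA2 and -0.22 (-0.40 to -0.06) for dnajb6a. dnajb2 held 0.591 and 0.570 RPKM in morphant and wild-type polysomal mRNA, below the floor. In morphant and wild-type total mRNA it held 2.05 and 3.24 RPKM. The total ratio of dnajb2 was -0.56 (-0.94 to -0.40 from the reads).

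Class C holds DnaJ proteins with special sites of work, and none of its genes above the floor was past 2-fold between morphant and wild type in either fraction, with dnajc5gb at the edge in total mRNA. The class median was -0.11 in polysomal and 0.06 in total mRNA. The widest difference was in dnajc5gb (ENSDARG00000017687), which held 4.80 and 2.64 RPKM in morphant and wild-type polysomal mRNA, and 6.65 and 3.24 RPKM in morphant and wild-type total mRNA. It had the highest ratio of all chaperone genes above the floor in each fraction, 0.76 (0.55 to 1.204) and 0.93 (0.79 to 1.29). On the scale of reads per depth its total ratio was 1.04, past 2-fold. DNAJC12 reached a total ratio of 1.01 but stayed below the floor in both total libraries (2.94 RPKM in morphant and 1.202 RPKM in wild type). DNAJC19, a part of the mitochondrial import motor, held 39.97 RPKM in morphant and 59.96 RPKM in wild-type polysomal mRNA, and 13.7 and 13.1 RPKM in morphant and wild-type total mRNA. Its polysomal and total ratios were -0.58 (-0.72 to -0.45) and 0.06 (-0.18 to 0.30). DNAJC5 (ENSDARG00000004836), the cysteine string protein of synaptic vesicles, held 11.6 and 12.1 RPKM in morphant and wild-type polysomal mRNA, and 17.5 and 12.6 RPKM in morphant and wild-type total mRNA. DNAJC10, a folding factor of the endoplasmic reticulum named outside the rule for naming genes, was higher in morphants in both fractions. It held 18.0 and 13.4 RPKM in morphant and wild-type polysomal mRNA, and 20.03 and 15.4 RPKM in morphant and wild-type total mRNA. Of class C genes above the floor, 6 were above 0 and 12 below in polysomal mRNA, and 14 and 6 in total mRNA. dnajc30b held 8.42 and 8.22 RPKM in morphant and wild-type polysomal mRNA, and 4.29 and 6.63 RPKM in morphant and wild-type total mRNA. The most abundant gene of the class was dnajc8, whose product associates with the splicing machinery, at 198 and 228 RPKM in morphant and wild-type polysomal mRNA and 99.2 and 113 RPKM in morphant and wild-type total mRNA.

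**Figure D3:**
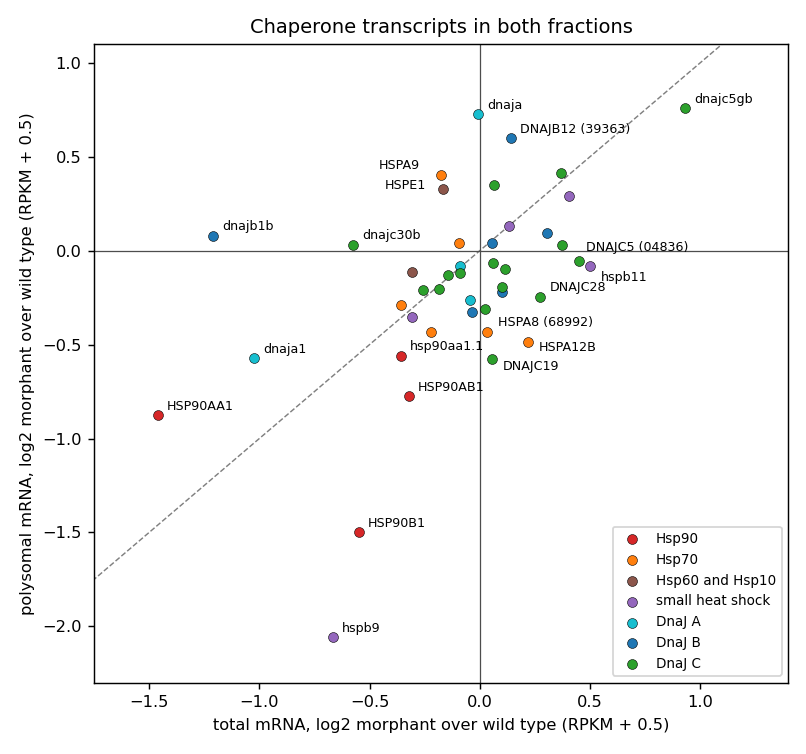
Log2 ratio of morphant over wild type (RPKM + 0.5) in total mRNA (x axis) and in polysomal mRNA (y axis) for the 43 chaperone genes above the floor in both fractions, coloured by family; the dashed line marks equal ratios. hspb9 and HSP90B1 lie far below the line and dnajb1b far above it.

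The fractions were then set against each other. Above the floor in both were 43 chaperone genes, of which 17 were lower and 9 higher in morphants in both fractions. Another 11 were lower in polysomal and higher in total mRNA, and 6 were higher in polysomal and lower in total mRNA. These joint counts were not made over all genes, so they have no background beside them. Taken singly, 4222 of all 8261 genes were lower in morphant polysomal mRNA and 6369 of all 12154 in morphant total mRNA. Polysome association, the polysomal ratio minus the total ratio, asks which mRNAs sit on polysomes more or less than their total level would give. Of 41 chaperone genes above the floor for it (3 RPKM in each total library and in 1 polysomal library or more), 1 was at least 2-fold higher in morphants and 1 was at least 2-fold lower, where 1.62% of all 7546 genes were higher and 3.07% lower. The share of chaperone genes, 2.44% in each direction, was near this background. The higher one was dnajb1b at 1.29 (1.13 to 1.62), which was level in polysomal mRNA while its total mRNA was lower. The lower one was hspb9 at -1.39 (-1.77 to -1.01). HSP90B1 lay just inside the cutoff at -0.95 (-1.07 to -0.84).

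Within families the association went both ways. Among Hsp90 genes HSP90AA1 stood at 0.58 (0.30 to 0.86), while HSP90AB1 stood at -0.45 and hsp90aa1.1 at -0.20 (-0.25 to -0.15). The hsp90aa1.1 value was 0.006 when libraries were scaled without their 50 most abundant genes. Among Hsp70 genes HSPA9 was at 0.58 (0.51 to 0.67), HSPA8 at -0.47 and HSPA12B at -0.71 (-0.82 to -0.62). The chaperonin genes were both above 0, HSPE1 at 0.50 (0.41 to 0.59) and HSPD1 at 0.19 (0.13 to 0.26). Of the DnaJ genes, dnaja was at 0.73 (0.52 to 0.98), dnajc30b at 0.61 (0.13 to 1.23) and dnaja1 at 0.45 (0.07 to 0.74), against -0.64 (-0.91 to -0.37) for DNAJC19 and -0.51 (-0.67 to -0.38) for DNAJC5 (ENSDARG00000004836). HSPB1 was at -0.11 (-0.20 to -0.03), a sign that turned (0.09) under the same scaling. The median of the 41 genes was -0.05, beside -0.005 over all genes, and under that scaling it was 0.16, beside 0.19.

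Polysomal over total mRNA within one condition describes how the chaperone mRNAs are spread between the fractions. In morphants 4 of 51 chaperone genes were at least 2-fold higher and 8 were at least 2-fold lower in polysomal than in total mRNA, where 6.81% of all 11951 genes were higher and 41.1% lower. In wild type 7 of 52 were at least 2-fold higher on polysomes and 12 were at least 2-fold lower, where 10.5% of all 12072 genes were higher and 42.7% lower. The share of chaperone genes at least 2-fold lower in polysomal mRNA was 15.7% in morphants and 23.1% in wild type, below the share of all genes in each condition. Their median was -0.09 in morphants and -0.11 in wild type, beside -0.70 and -0.71 over all genes. The gap was smaller among genes of at least 12 RPKM, with chaperone medians of -0.15 in morphants and -0.21 in wild type beside -0.30 and -0.30 over all genes. The counts depend on the scaling between fractions. Median-of-ratios scaling gave 7 higher and 7 lower in morphants and 7 and 10 in wild type, upper-quartile scaling gave 9 and 5 in morphants and 13 and 7 in wild type, and totals without the 50 most abundant genes gave 3 and 10 in morphants and 5 and 15 in wild type. The counts over all genes moved too. In morphants 814 higher and 4913 lower became 1113 and 4314, 1828 and 3371, and 524 and 6036 under these scalings in turn. In wild type 1267 and 5156 became 1538 and 4651, 2214 and 3632, and 721 and 6761. The wild-type polysomal library enters all wild-type values, so these comparisons share libraries with those between morphant and wild type.

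All 4 genes past 2-fold toward polysomes in morphants were past it in wild type too. DNAJC19 stood at 1.51 (1.35 to 1.75) in morphants and 2.15 (2.01 to 2.39) in wild type. HSPA12B stood at 1.46 (1.44 to 1.58) in morphants and 2.17 (2.16 to 2.302) in wild type. These 2 mRNAs thus made up a larger share of the polysomal than of the total library in both conditions, by an amount that moves with the scaling between fractions. For hspb11 the values were 1.44 (1.11 to 2.05) and 2.02 (1.73 to 2.79) in morphants and wild type, and for hspb9 they were 1.04 (0.77 to 1.41) and 2.43 (2.26 to 2.70). Past 2-fold in wild type alone were DNAJC12 (1.41, 0.90 to 2.74), HSP90B1 (1.21, 1.15 to 1.29) and dnajc8 (1.01, 0.93 to 1.1), whose morphant values were 0.29, 0.26 and 0.99. The dnajc8 values differ by less than their intervals, and it lies just past the cutoff in one condition and just short of it in the other.

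**Figure D4:**
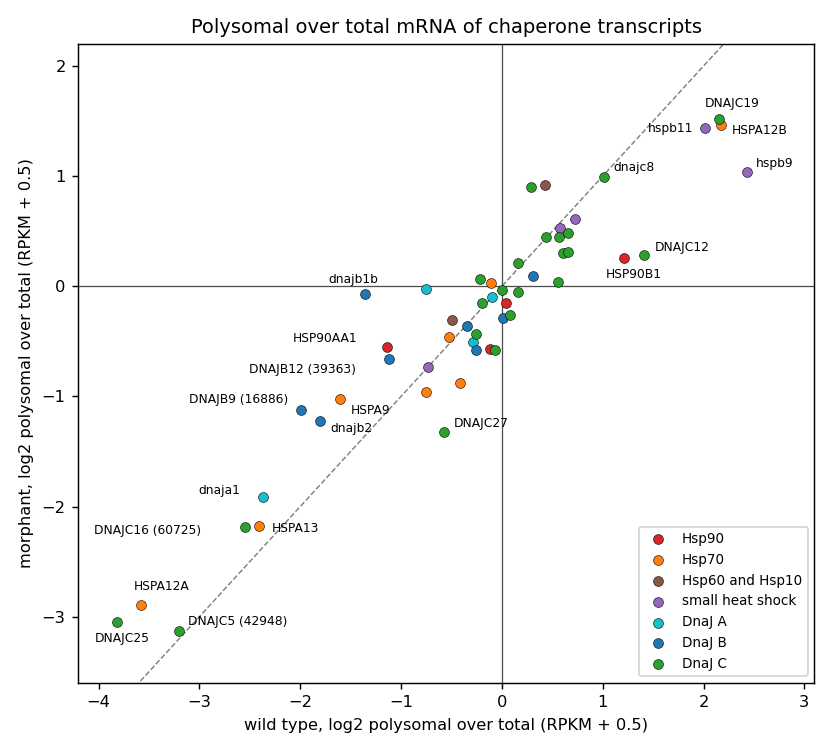
Log2 ratio of polysomal over total mRNA (RPKM + 0.5) in wild type (x axis) and in morphants (y axis). Shown are the chaperone genes above the floor in either condition, coloured by family, and the dashed line marks equal ratios. DNAJC19, HSPA12B and hspb11 lie at the polysomal end and DNAJC25, HSPA12A and one DNAJC5 copy at the total end in both conditions, and HSP90B1 and hspb9 lie below the line.

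At the other end were genes present in total mRNA and nearly missing from polysomes. DNAJC25 (ENSDARG00000067613) held 1.83 and 0.774 RPKM in morphant and wild-type polysomal mRNA, against 18.7 and 17.5 RPKM in morphant and wild-type total mRNA, or -3.05 in morphants and -3.82 in wild type. The DNAJC5 copy ENSDARG00000042948 held 0.268 and 0.436 RPKM in morphant and wild-type polysomal mRNA, against 6.21 and 8.11 RPKM in morphant and wild-type total mRNA. Its values of -3.13 in morphants and -3.20 in wild type set it apart from the copy ENSDARG00000004836, at -0.58 and -0.07. The same symbol thus covers a gene found on polysomes and one hardly found there. HSPA12A, an Hsp70 relative, had 7 and 0 reads in morphant and wild-type polysomal mRNA, against 189 and 287 reads in morphant and wild-type total mRNA. With the 0 set to 3 reads, it was 60.5-fold lower in polysomal than in total mRNA of wild type. That fold is not a lower bound, since the counting interval of the HSPA12A ratio in wild type reached up to -5.61. HSPA12A and HSPA12B therefore lay at opposite ends. DNAJC16 (ENSDARG00000060725) held 1.86 and 1.28 RPKM in morphant and wild-type polysomal mRNA, against 10.2 and 9.90 RPKM in morphant and wild-type total mRNA. HSPA13, an Hsp70 of the microsomal fraction, held 0.375 and 0.205 RPKM in morphant and wild-type polysomal mRNA, against 3.46 and 3.24 RPKM in morphant and wild-type total mRNA. DNAJB5 had 3 and 0 polysomal reads against 99 and 150 total reads in morphants and wild type. With the 0 set to 3 reads, it was 31.6-fold lower on polysomes in wild type. This too is not a lower bound, since the counting interval of the DNAJB5 ratio in wild type reached up to -4.67. DNAJB5 was named after its values were seen.

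Other genes were poorer on polysomes by smaller amounts. For dnaja1 polysomal over total was -1.92 (-2.34 to -1.83) in morphants and -2.37 (-2.72 to -2.26) in wild type. For HSPA9 it was -1.02 (-1.09 to -0.98) in morphants and -1.61 (-1.69 to -1.56) in wild type. The value of dnajb1b was -0.07 (-0.26 to 0.11) in morphants and -1.36 (-1.63 to -1.28) in wild type, and that of HSP90AA1 was -0.55 (-0.83 to -0.37) and -1.14 (-1.35 to -1.01). DNAJB9 (ENSDARG00000016886) stood at -1.99 and dnajb2 at -1.81 in wild type, and both were below the floor in morphants. DNAJB12 (ENSDARG00000039363) stood at -0.66 in morphants and -1.12 in wild type. DNAJC27 was past 2-fold in morphants only by value, at -1.32 (-1.89 to -1.31) beside -0.57 (-0.995 to -0.39) in wild type, and the difference was not tested. The length of the gene model, recovered with the reads, went with polysomal over total only weakly. Spearman's rho was -0.21 over 49 chaperone genes in morphants and -0.18 over 50 in wild type, and -0.18 and -0.15 over all genes, as a description within shared libraries.

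Of 6 symbols held by more than 1 gene (12 genes), each pair had one copy above the other in both total libraries. For DNAJB12 the second copy (ENSDARG00000087473) held 0.778 and 1.31 RPKM in morphant and wild-type polysomal mRNA, and 1.16 and 1.48 RPKM in morphant and wild-type total mRNA. For DNAJC16 the second copy (ENSDARG00000059699) held 0.369 and 0.785 RPKM in morphant and wild-type polysomal mRNA, and 1.52 and 1.06 RPKM in morphant and wild-type total mRNA. Short reads from like sequences of such copies can be counted for either one, so the split between copies is uncertain.

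The partners of these chaperones, in lists of other folding factors, were mostly level between morphant and wild type. Of 13 genes of the cytosolic chaperonin CCT and of prefoldin, which hands actin and tubulin to it, 1 was at least 2-fold lower in polysomal mRNA and none was past 2-fold in total mRNA, with medians of -0.19 and -0.09. Over all genes 4.12% were that much lower in polysomal mRNA and 0.675% in total mRNA, so counts of 0 or 1 in lists of this size are near the background. That gene was CCT4, at 261 RPKM in morphant and 542 RPKM in wild-type polysomal mRNA, and 213 and 337 RPKM in morphant and wild-type total mRNA. None of 9 Hsp90 co-chaperones and partners in polysomal mRNA or of 11 in total mRNA was past 2-fold (medians -0.15 and -0.06). TRAP1 is among them. Nor was any of 9 and 10 nucleotide exchange factors and other partners of Hsp70 past 2-fold (medians 0.09 and 0.10). Of the 9 Hsp90 co-chaperones and partners in polysomal mRNA, 5 were lower in morphants, with FKBP4 (-0.58) and STIP1 (-0.44) the lowest. The other 4 were higher, up to 0.67 for TTC4. Among 17 folding factors of the endoplasmic reticulum in polysomal mRNA, 1 was at least 2-fold lower, CALR (calreticulin), at 7.58 RPKM in morphant and 16.96 RPKM in wild-type polysomal mRNA and 21.0 and 28.9 RPKM in morphant and wild-type total mRNA, and the median was 0.01. None of 19 was past 2-fold in total mRNA (median 0.02). The mitochondrial quality control list held 5 genes above the floor in polysomal and 8 in total mRNA, none past 2-fold.

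The heat shock factor gene hsf1 was scarce, at 0.181 and 0.132 RPKM in morphant and wild-type polysomal mRNA and 1.72 and 2.25 RPKM in morphant and wild-type total mRNA. Of 3 genes of the heat shock factor list above the floor, HSBP1, which binds Hsf1, had a polysome association of -1.07. It held 52.3 and 78.2 RPKM in morphant and wild-type polysomal mRNA and 21.6 and 15.1 RPKM in morphant and wild-type total mRNA. The more abundant hsbp1b was level in association, at -0.09, and HSF2 was at -0.60. For hsbp1b the levels were 82.7 and 85.3 RPKM in morphant and wild-type polysomal mRNA, and 34.1 and 33.1 RPKM in morphant and wild-type total mRNA. The list of muscle myosin chaperones other than hsp90aa1.1 held 3 genes. UNC45B, which works with Hsp90 on myosin, held 36.7 and 46.6 RPKM in morphant and wild-type polysomal mRNA, and 62.3 and 74.0 RPKM in morphant and wild-type total mRNA, with polysomal and total ratios of -0.34 and -0.25. Both other genes carry the symbol SMYD1 and had opposite signs in polysomal mRNA. In total mRNA both were above 0, at 0.28 for ENSDARG00000009280 and 0.13 for ENSDARG00000091253. SMYD1 ENSDARG00000009280 held 19.9 RPKM in morphant and 60.5 RPKM in wild-type polysomal mRNA, and 7.31 and 5.94 RPKM in morphant and wild-type total mRNA, a polysomal ratio of -1.58. SMYD1 ENSDARG00000091253 held 37.2 and 16.3 RPKM in morphant and wild-type polysomal mRNA, and 179.9 and 164 RPKM in morphant and wild-type total mRNA, a polysomal ratio of 1.17. The alpha crystallins, small heat shock proteins of the lens, did not exceed 0.761 RPKM in any library.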

How the data were processed

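Whole embryos at about 24 hours after fertilization gave polysomal and total RNA. Per the labels, Trizol was the extraction reagent, libraries were made from polyA mRNA, and an Illumina Genome Analyzer IIx gave single 36-base reads. The authors deposited 1 RPKM value per Ensembl gene and library. The genome build was Zv9, per the submitters' processing notes. Aligner, counter and annotation version were not given in the sources used here. Symbols were joined by Ensembl identifier for 20499 genes. Of 71 chaperone symbols, 61 were found in the RefSeq gene table (GRCz12tu), used for names and neighbours only. Promoter and protein sequences were not analysed here.

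Low values move in steps of 1 read, starting at a whole number of reads plus 1. Reads were recovered for 32150 genes (99.5%), and for 75 of the 77 chaperone genes (not HSPA8 ENSDARG00000068992 and HSP90AB1). The recovered number may be a common fraction of the true count for some genes, which widens their intervals. Intervals are exact (Clopper-Pearson) 95% binomial intervals of the ratio of reads per depth, or for association a normal approximation on the log scale. Since reads carry no pseudocount, an interval can lie off the printed ratio for low genes. Of genes with 4 reads in a pair of libraries, 21.0% were split evenly in polysomal and 36.1% in total mRNA, where counting error alone gives 35.5% and 37.0%. Polysomal intervals are therefore taken as too narrow. Differences between morphant and wild type can also lower the even share, and their part was not tested.

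Ratios are log2 after adding 0.5 RPKM, with a floor of 3 RPKM. With 1 library per group no test was made. Shares past 2-fold stand beside those over all genes. Genes named with values were those past 2-fold in any of the 5 comparisons. The 3 highest and lowest in each comparison of morphant and wild type were named too. So were the most abundant of each family and copies of the same symbol (34 genes together). Outside this rule were DNAJC10, those said to be chosen after their values were seen and a few described beside their relatives. The members and lists were chosen with earlier results of these data known. Alternatives were pseudocounts of 1 and 0.1 RPKM, no floor, a floor of 12 RPKM, a 1.5-fold cutoff, 3 other scalings and the recovered reads. Read recovery and 2-fold calls were also run on simulated reads with counting error only and changes in the morphant total library alone. That run does not check polysomal calls or the width of intervals. Figures were drawn with Matplotlib 3.10.9 and values computed with SciPy 1.17.1, pandas 2.3.3 and NumPy 2.4.6 under Python 3.11.15.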

Additional observations from a re-analysis of the deposited data

Results flagged for a closer look

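The rule here was a morphant above wild type in one fraction and below it in the other, with both counting intervals away from 0. Among chaperone genes above the floor in both fractions, 3 met it. HSPA9 was higher in morphant polysomal and lower in morphant total mRNA, by 0.58 between the log2 ratios. HSPE1 had the same pattern, with 0.50 between them. HSPA12B was lower in morphant polysomal and higher in morphant total mRNA, with a difference of -0.71. Each of the 3 kept its opposite signs under the 3 other scalings of the libraries. The rule was not applied to all genes, so no background share stands beside these 3. Below the floor in polysomal mRNA, DNAJC27, DNAJC16 (ENSDARG00000059699) and HSPA12A also had opposite signs with intervals away from 0. This DNAJC16 copy was below the floor in total mRNA too, where its interval began at 0.02. The HSPA12A polysomal sign rested on 7 and 0 reads in morphant and wild type, with an interval from 0.05 up. Intervals away from 0 were common among chaperone genes with an interval. In polysomal mRNA 10 of 43 lay above 0 and 17 below, and in total mRNA 10 of 49 lay above and 21 below. These counts were not made over all genes either, so they do not tell chaperone genes from other genes. Polysomal intervals are also taken as too narrow. Each value rests on 1 library per group, and the difference between the fractions was not tested.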

How the results depend on the processing

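Across 9 alternatives, 36 of 45 counts of chaperone genes past 2-fold stayed within 1.5 times the value given above. Each count adds the genes higher and lower, so it can stay in that range while the direction shifts. This happened for polysomal over total mRNA under upper-quartile scaling. There 4 higher and 8 lower became 9 and 5 in morphants, and 7 and 12 became 13 and 7 in wild type. In polysomal mRNA the 2 became 5 with no floor and 7 at a 1.5-fold cutoff. Over all genes 145 higher and 340 lower became 280 and 549 with no floor and 657 and 905 at 1.5-fold. In total mRNA the 4 became 2 with a pseudocount of 1 RPKM, which takes dnaja1 and DNAJB9 out. Over all genes 174 higher and 82 lower became 143 and 57 with that pseudocount. For polysome association the 2 became 6 with no floor, 0 with a floor of 12 RPKM and 7 at 1.5-fold. Over all genes 122 higher and 232 lower became 494 and 932, 23 and 94, and 537 and 639 in the same order. For polysomal over total mRNA in morphants the 12 became 6 with a floor of 12 RPKM and 20 at 1.5-fold, and in wild type the 19 became 11 with a floor of 12 RPKM. Over all genes 814 higher and 4913 lower in morphants became 652 and 1591, and 1647 and 6392, in the same order. In wild type 1267 and 5156 became 930 and 1767. A higher floor tests fewer genes, and a lower cutoff counts more. Of 763 values of single named genes under an alternative, 25 turned sign, all under another scaling. Of those 25, 7 had a counting interval away from 0 at first. HSPA8 (ENSDARG00000068992) and HSP90AB1 have no interval, so their turns could not be among the 7. In wild-type polysomal over total mRNA, upper-quartile scaling turned HSPA8 from -0.42 to 0.05 and HSP90AB1 from -0.12 to 0.35. Median-of-ratios scaling turned HSP90AB1 there to 0.03. The 7 with an interval away from 0 were as follows. Upper-quartile scaling turned dnajc5gb (0.022) and HSPD1 (0.18) in morphants and dnajb6a (0.19) and DNAJA2 (0.18) in wild type, all polysomal over total. Totals without the 50 most abundant genes turned HSPD1 (0.11) and dnajc8 (0.026) in polysomal mRNA and HSPB1 (0.094) in association. The association of hsp90aa1.1, outside that count, turned to 0.006. That scaling moved the median of all genes to 0.22 in polysomal mRNA. In total mRNA it gave 1 higher and 4 lower chaperone genes, beside 213 higher and 86 lower over all genes. All 4 Hsp90 genes stayed below 0 in both fractions under it. Of 45 medians of the chaperone genes 7 turned, those of polysomal mRNA (0.10), total mRNA (0.002) and association (0.16) under totals without the 50 most abundant genes, and those of polysomal over total mRNA under median-of-ratios (0.06 in morphants, 0.04 in wild type) and upper-quartile scaling (0.37 and 0.37). The cause of these turns was not tested beyond the shift in scale. Depth limits genes under about 3 RPKM. No paired analysis was possible because each group holds 1 library.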
